A study of Mus musculus with 8 samples.

Results

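Chemokine receptors are the surface receptors with which leukocytes sense chemokines, the small secreted proteins that direct their migration. The genes described here are 7 receptor genes of myeloid cells, *Ccr1*, *Ccr2*, *Ccr7*, *Ccrl2*, *Cxcr2*, *Cxcr4* and *Cx3cr1*, chosen by name and each found as 1 row of the 23356 genes measured. RNA-seq was performed on bone marrow-derived dendritic cells (BMDCs) of mice on a C57BL/6 background, C57BL/6N in the methods of the study. BMDCs were grown from marrow for 6 days with GM-CSF and IL-4, each at 10 ng/ml, and all 4 groups shared this culture. The groups were WT and GEF-H1-/- (genotype Arhgef2-/-) BMDCs, each left untreated (control) or exposed to 100 nM ansamitocin-P3 for 5 h, with 2 libraries per group. Ansamitocin-P3 destabilizes microtubules, and GEF-H1, encoded by *Arhgef2*, is a microtubule-bound activator of RhoA that is set free when microtubules fall apart. The labels give no age of the mice, the knockout was carried by the whole animal rather than by dendritic cells alone, and the loosely attached cells of the culture were used without sorting.

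Most chemokine receptors are seven-transmembrane receptors that signal through inhibitory G proteins to guide cells along a chemokine gradient. In dendritic cells, maturation is known for a switch between such receptors. Immature cells carry receptors for inflammatory chemokines, such as CCR1 and CCR2, which draw them and their precursors into inflamed tissue, and maturing cells gain CCR7, which leads them to lymph nodes.

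The values are FPKM, fragment counts scaled to transcript length and to the size of the library, so that levels can be compared between genes. The 2 libraries of a group were combined by Cuffdiff into 1 FPKM per gene and group with a 95% confidence interval, which is given in brackets. No value of a single library, no SD and no test over replicates is therefore behind any difference described here, and the depth that each library reached is unknown. The interval spanned a median of 45.3% of the FPKM among expressed genes in control WT DCs, so that changes below that size are hard to see. Changes are log2 ratios of FPKM + 1, which understate the change of low genes. They were computed for the 11397 genes that reached 1 FPKM in any group, and a gene is called past the fold when its change was over 1 or under -1, a 2-fold change. A gene is said to have risen or fallen only where the intervals of the 2 groups did not overlap. *Arhgef2* was at 42.3 FPKM in control and 45.9 FPKM in treated WT DCs against 4.59 and 4.16 FPKM in the GEF-H1-/- groups. Of the dendritic cell markers, *Itgax*, *H2-Ab1*, *Cd74* and *Zbtb46* were present in all groups, while *Flt3* and *Cd209a* were between 0.81 and 3.30 FPKM. Markers of neutrophils were also abundant, with *S100a8* between 10856 and 23110 FPKM, a level at which its FPKM lay outside its own interval. The labels do not say that the 2 libraries of a group came from separate mice.

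The 7 receptors fell into a high and a low set. In control WT DCs *Ccr7* was highest at 258 FPKM (202 to 312), a level above that of 97.3% of the tested genes. *Ccr2* followed at 136 FPKM (100 to 161) and *Cxcr2* at 122 FPKM (98.9 to 146), and their intervals overlapped, so these neighbours were not separated. *Ccr1* at 71.4 FPKM (53.9 to 86.6) and *Cxcr4* at 68.7 FPKM (50.2 to 80.9) formed the next pair, again with overlapping intervals. *Ccrl2* was far lower at 3.17 FPKM (2.18 to 4.12). *Cx3cr1* was at 0.126 FPKM (0.0472 to 0.201) and remained under 1 FPKM in all groups, so 6 of the 7 genes passed the filter on low values. The order in control GEF-H1-/- DCs was the same as in control WT DCs, but there the intervals of the 4 genes below *Ccr7* overlapped from each to the next.

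**Figure D1:**
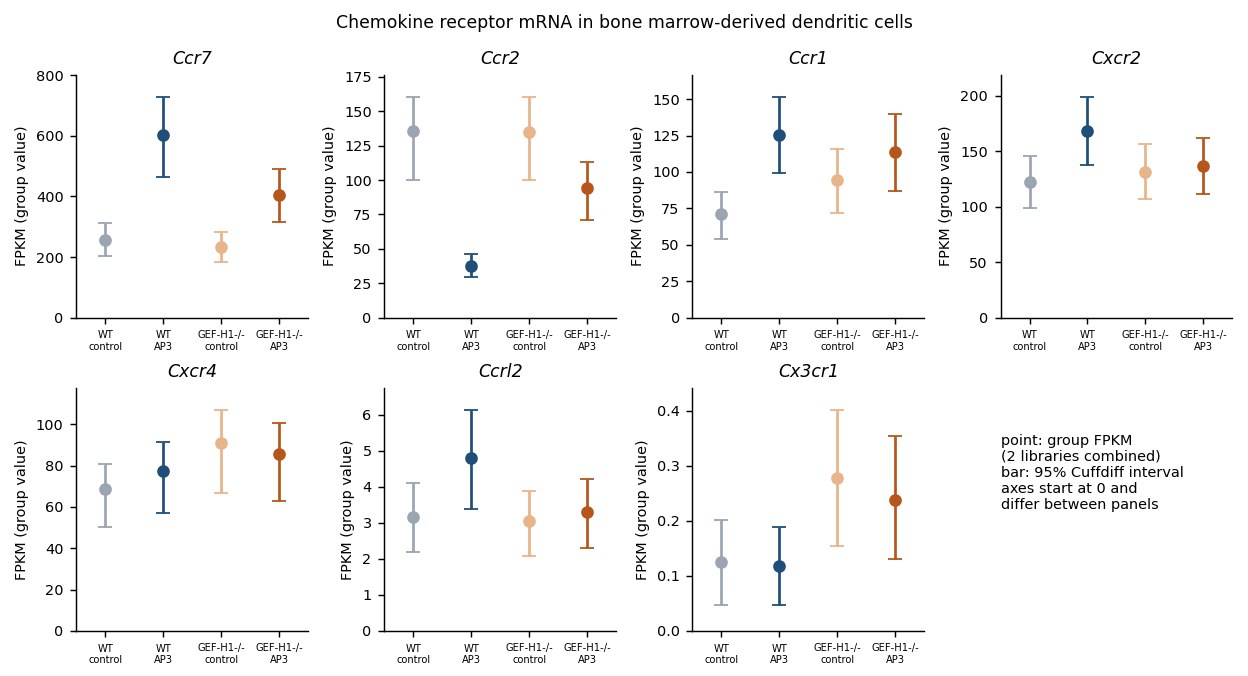
FPKM of each receptor gene in control and ansamitocin-P3 (AP3)-treated WT and GEF-H1-/- DCs, with 1 panel per gene, a linear axis from 0 that differs between panels, points for the group value of 2 combined libraries and bars for its 95% Cuffdiff interval. *Ccr2* in treated WT DCs (37.8 FPKM) lies below all other groups, whereas *Ccr7* lies above its controls in both genotypes.

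Ansamitocin-P3 changed this order in WT DCs. *Ccr2* moved from the second to the fifth place, below *Cxcr2*, *Ccr1* and *Cxcr4*, and its interval in treated WT DCs overlapped that of neither neighbour. In treated GEF-H1-/- DCs *Ccr2* held the fourth place, and its interval overlapped those of *Ccr1* above and *Cxcr4* below it. The 7 genes summed to 659 FPKM without and 1016 FPKM with the drug in WT cells, and to 689 and 838 FPKM in GEF-H1-/- cells. *Ccr7* made up 39.1% of this sum in control and 59.3% in treated WT DCs, while the share of *Ccr2* was 20.6% and 3.72%. In GEF-H1-/- DCs the share of *Ccr7* was 34.0% and 48.3%, and that of *Ccr2* 19.6% and 11.3%.

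Past the fold with ansamitocin-P3 in WT DCs were 2 of the 6 receptors tested, *Ccr7* upwards and *Ccr2* downwards. Over all tested genes, 4.94% were past the fold, 3.66% upwards and 1.28% downwards. This balance turned with the scaling, from 417 genes upwards and 146 downwards to 259 upwards and 406 downwards when the groups were rescaled to the same total FPKM. The intervals of control and treated WT DCs were apart for 3 receptors, *Ccr7*, *Ccr1* and *Ccr2*, against 16.8% of all tested genes (9.19% upwards, 7.58% downwards). In GEF-H1-/- DCs none of the 6 was past the fold (0 receptors, no test over replicates was possible), against 1.08% of all genes (0.807% upwards, 0.272% downwards). The intervals there were apart for *Ccr7* only, against 3.70% of all genes (2.75% upwards, 0.956% downwards). Over the 6 receptors the log2 change had a median of 0.47 in WT cells and of 0.07 without GEF-H1, and over all tested genes of 0.001 and -0.009.

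*Ccr7* encodes the receptor for CCL19 and CCL21 that brings mature dendritic cells to the T cell zone of lymph nodes. It lies on chromosome 11 from 99144199 to 99155077 (mm10, minus strand, a protein-coding gene of 3 exons). WT controls had 258 FPKM (202 to 312), treated WT cells 602 (465 to 730), GEF-H1-/- controls 234 (184 to 284) and treated GEF-H1-/- cells 405 (316 to 490). Both treated groups lay above both control groups without overlap of the intervals, while the treated groups overlapped each other and the control groups did likewise. *Ccr7* rose 2.34-fold in WT DCs (1.49 to 3.61 when the bounds of both intervals are set against each other) and 1.73-fold in GEF-H1-/- DCs (1.11 to 2.66). On the log2 scale of FPKM + 1 these were changes of 1.22 and 0.79, and the GEF-H1-/- change was 64.5% of the WT change, the largest share kept by any of the 6 receptors. The difference between the genotypes in this effect was 0.43 on the log2 scale. The ranges of the fold in WT and GEF-H1-/- DCs overlapped, and the difference was not tested over replicates. Ranked among all tested genes, the *Ccr7* change was 277th from the top in WT cells and 160th without GEF-H1.

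*Ccr2* encodes the receptor for CCL2 and CCL7, with which monocytes and their dendritic progeny leave the marrow and enter inflamed tissue. It lies on chromosome 9 from 124102183 to 124109140 (mm10, plus strand). Expression was 136 FPKM (100 to 161) among WT controls and 37.8 (29.2 to 46.3) after the drug, against 135 (99.9 to 160) and 94.5 (70.8 to 113) among GEF-H1-/- cells without and with the drug. The control groups had nearly the same level, treated WT DCs were below every other group without overlap, and treated GEF-H1-/- DCs overlapped both control groups. In WT DCs *Ccr2* fell by 72.2%, to a ratio of 0.278 (0.181 to 0.463). In GEF-H1-/- DCs the ratio was 0.699 (0.441 to 1.14), a range that includes no change. The log2 changes were -1.82 and -0.51, so that the GEF-H1-/- change was 28.1% of the WT change. Of the tested genes only 18 had a lower change than *Ccr2* in WT DCs, where it was 19th from the bottom, and it was 209th from the bottom in GEF-H1-/- DCs. In bulk RNA a loss of cells that carry *Ccr2* and a lower level per cell cannot be told apart.

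*Ccr1* encodes a receptor for CCL3, CCL5, CCL6 and CCL9 on monocytes, neutrophils and immature dendritic cells. It lies on chromosome 9 from 123962126 to 123968692 (mm10, minus strand, a protein-coding gene of 2 exons). WT controls had 71.4 FPKM (53.9 to 86.6), treated WT cells 126 (99.3 to 152), GEF-H1-/- controls 94.8 (72.1 to 115) and treated GEF-H1-/- cells 114 (87.2 to 140). Only control WT DCs stood apart, from both treated groups but not from control GEF-H1-/- DCs. *Ccr1* rose 1.76-fold (1.15 to 2.81) in WT DCs, and the ratio in GEF-H1-/- DCs was 1.20 (0.755 to 1.94). The log2 changes were 0.81 and 0.26, neither past the fold, and the GEF-H1-/- change was 32.0% of the WT change. The control level of GEF-H1-/- DCs was 1.33 times that of WT DCs (0.833 to 2.14), with overlapping intervals.

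*Ccr1* and *Ccr2* belong to a cluster of receptor genes on chromosome 9, with 133 kb, *Ccr1l1* and *Ccr3* between them, and they moved in opposite directions in WT DCs. For this reason the 250 bases before the start of each gene are shown, from RefSeq (GRCm38.p6), 5′ to 3′ on the strand of the gene, in lower case with matches to the motifs named below in capitals. The window of *Ccr1* is chr9:123968693-123968942 (minus strand) and that of *Ccr2* is chr9:124101933-124102182 (plus strand).
Ccr1: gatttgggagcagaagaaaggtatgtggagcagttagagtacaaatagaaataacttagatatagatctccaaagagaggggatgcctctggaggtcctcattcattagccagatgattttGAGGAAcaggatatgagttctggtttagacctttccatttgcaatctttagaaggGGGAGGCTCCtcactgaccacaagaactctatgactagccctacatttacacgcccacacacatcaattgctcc
Ccr2: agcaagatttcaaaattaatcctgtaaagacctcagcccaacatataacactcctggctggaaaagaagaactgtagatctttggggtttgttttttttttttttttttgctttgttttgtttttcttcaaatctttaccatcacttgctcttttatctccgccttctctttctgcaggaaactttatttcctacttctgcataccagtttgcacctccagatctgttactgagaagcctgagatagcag
Both strands were searched for TGANTCA (AP-1), the NF-kB consensus, TTGCNNAA (C/EBP), the IRF consensus, GAGGAA (PU.1) and the SRF CArG box, with no overlap between the matches found. The *Ccr1* window held 1 match to GAGGAA, which begins 129 bases before the start, and 1 to the NF-kB consensus, which begins 74 bases before it. Of all 32851 promoter windows of this length, 23.3% held GAGGAA, 7.25% the NF-kB consensus, 6.75% TGANTCA, 9.56% TTGCNNAA, 2.98% the IRF consensus and 1.47% the CArG box. The *Ccr2* window held no match to these 6 motifs. Windows were found for 6 of the 7 genes, all but *Ccr7*. That of *Cxcr2* held 1 GAGGAA match and 1 of the 3 windows of *Ccrl2* held 1 match to the NF-kB consensus, while those of *Cxcr4* and *Cx3cr1* held none of the 6 motifs. In the GENCODE M21 annotation the first exon of *Ccr2* starts at 124101950, inside the window shown, so that part of it is transcribed in some annotated transcripts. These matches describe the letters of the windows, and binding was not measured.

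*Cxcr2*, the receptor for CXCL1, CXCL2, CXCL3 and CXCL5, is best known from neutrophils. It lies on chromosome 1 from 74153994 to 74161246 (plus strand). Expression was 122 FPKM (98.9 to 146) among WT controls and 168 (137 to 199) after the drug, against 131 (106 to 156) and 136 (111 to 162) among GEF-H1-/- cells without and with the drug. All 4 intervals overlapped, with the highest value in treated WT DCs. The ratio of treated to control was 1.38 (0.943 to 2.01) in WT DCs and 1.04 (0.712 to 1.52) without GEF-H1. The log2 changes were 0.46 and 0.06. Markers of neutrophils were present throughout. Their summed level was higher in the treated than in the control group of each genotype, but most of that sum was *S100a8* and *S100a9*. Gene by gene, 7 had a log2 change above 0 and 2 below it in WT DCs, with a median of 0.19. Without GEF-H1 these were 4 and 5, with a median of -0.08, and no gene of the list had intervals apart with the drug. The 9 neutrophil genes measured summed to 32452 and 38322 FPKM in untreated and treated WT cells, and to 21898 and 22304 FPKM in GEF-H1-/- cells. Within this list the granule genes *Ngp*, *Camp* and *Ltf* were past the fold downwards in control GEF-H1-/- compared with control WT DCs, with log2 differences from -3.57 to -1.28. *Mpo* and *Csf3r* were past it upwards, at 1.23 and 1.37, and each of these genes had intervals apart. *Elane* was at 1.11, but its intervals overlapped widely, with 0 to 93.1 FPKM in control WT and 0 to 152 FPKM in control GEF-H1-/- DCs. The log2 difference of *Cxcr2* was 0.10. The part of neutrophils in the *Cxcr2* level was not tested.

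*Cxcr4*, the receptor for CXCL12 that retains cells in the marrow, lies on chromosome 1 from 128588199 to 128592299 (minus strand). WT controls had 68.7 FPKM (50.2 to 80.9), treated WT cells 77.4 (56.9 to 91.5), GEF-H1-/- controls 91.0 (66.6 to 107) and treated GEF-H1-/- cells 85.5 (62.6 to 101). All 4 intervals overlapped. The ratio of treated to control was 1.13 (0.704 to 1.82) in WT DCs and 0.940 (0.586 to 1.51) without GEF-H1, and the difference between the genotypes in the log2 change, 0.26, was the smallest of the 6 receptors.

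*Ccrl2* encodes an atypical receptor that does not couple to G proteins and presents the chemoattractant chemerin on the cell surface. It lies on chromosome 9 from 111054835 to 111057270 (minus strand), outside the cluster that holds *Ccr1* and *Ccr2*. Expression was 3.17 FPKM (2.18 to 4.12) among WT controls and 4.81 (3.38 to 6.13) after the drug, against 3.05 (2.08 to 3.88) and 3.31 (2.29 to 4.22) among GEF-H1-/- cells without and with the drug. All intervals overlapped, and at this level the interval spans more than the differences. The ratio of treated to control was 1.52 (0.821 to 2.81) in WT DCs and 1.09 (0.589 to 2.03) without GEF-H1.

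*Cx3cr1* encodes the receptor for CX3CL1 (fractalkine), a marker of resident monocytes and tissue macrophages. It lies on chromosome 9 from 120048683 to 120068296 (minus strand). WT controls had 0.126 FPKM (0.0472 to 0.201), treated WT cells 0.119 (0.0472 to 0.189), GEF-H1-/- controls 0.278 (0.153 to 0.401) and treated GEF-H1-/- cells 0.237 (0.130 to 0.354). Both GEF-H1-/- values were above both WT values, but the intervals overlapped, and a change of *Cx3cr1* was not detectable at this level.

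**Figure D2:**
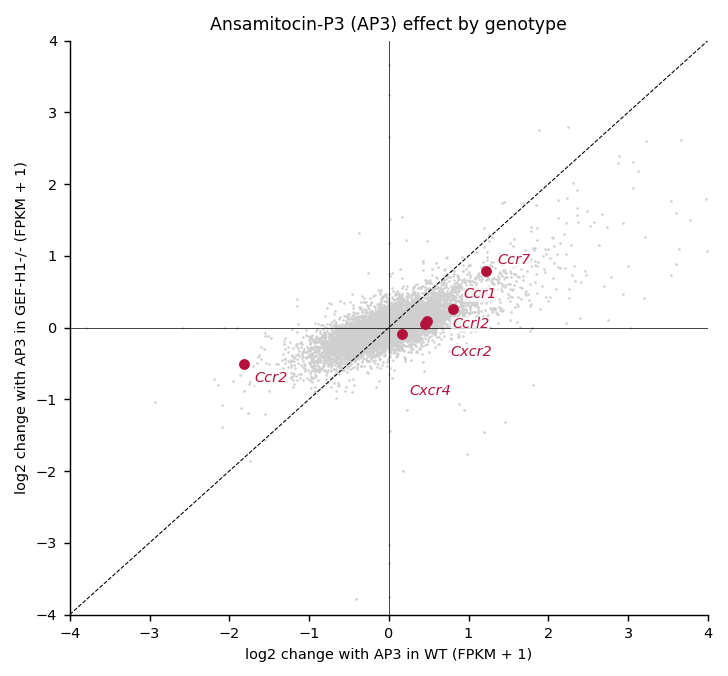
Log2 change (FPKM + 1) with ansamitocin-P3 (AP3) in WT (x axis) and GEF-H1-/- DCs (y axis) for 11397 genes in grey, of which 39 lie outside the axes, and for the 6 receptor genes past the filter in red, with a dashed line where both changes are equal. All 6 receptors lie nearer to 0 on the y axis than on the x axis.

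For each of the 6 receptors the change in GEF-H1-/- DCs was smaller in size than in WT DCs, as it was for 77.5% of all tested genes. The WT change minus the GEF-H1-/- change was from 0.26 to 0.55 on the log2 scale for *Cxcr4*, *Ccrl2*, *Cxcr2*, *Ccr7* and *Ccr1*, in that order, and -1.31 for *Ccr2*. For those 5 the difference was smaller than its error from the 4 intervals, which lay between 0.54 and 0.68 for the 6 receptors. Over all tested genes, 51.6% had a value above 0. Past the fold in this difference was *Ccr2* alone of the 6, against 1.90% of all tested genes (1.36% upwards, 0.535% in its own direction, or 155 and 61 genes, which became 94 and 113 with groups of the same total FPKM). *Ccr2* was 37th from the bottom of all genes in this difference. *Ccr7* and *Ccr2* were the 2 receptors past the fold in WT DCs, in opposite directions, so by this choice their ratio changed by more than either gene. *Ccr1*, whose product is named above with CCR2 as a receptor of immature cells, rose in WT DCs instead, with a log2 change of 0.81. The ratio of *Ccr7* to *Ccr2* FPKM was 1.90 (1.26 to 3.11) for WT controls, 15.9 (10.0 to 25.0) for treated WT cells, 1.73 (1.15 to 2.84) for GEF-H1-/- controls and 4.28 (2.78 to 6.92) for treated GEF-H1-/- cells, where the range sets the bounds of both intervals against each other. The ranges of the control groups overlapped, and the range of treated WT DCs was above all others.

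Compared between genotypes, the control groups showed no difference beyond the intervals in the 6 receptors. None was past the fold (0 receptors), against 1.88% of all tested genes (1.26% higher and 0.614% lower in GEF-H1-/- DCs), and no intervals were apart (0 receptors), against 4.74% (2.86% higher, 1.88% lower). The ratios of GEF-H1-/- to WT ran from 0.908 (0.590 to 1.40) for *Ccr7* to 1.33 (0.833 to 2.14) for *Ccr1*, and differences within such ranges were not detectable. In treated cells *Ccr2* was higher in GEF-H1-/- than in WT DCs, 2.50-fold (1.53 to 3.89) or 1.30 on the log2 scale. It was the only one of the 6 past the fold, against 4.06% of all tested genes (2.0% higher, 2.06% lower, or 228 and 235 genes, which became 412 and 124 with groups of the same total FPKM). It was also the only one with intervals apart, against 13.7% (7.02% higher, 6.73% lower). This comparison shares the treated WT value with that of the drug effect and is not independent of it. *Ccr7* was at 0.672 and *Ccrl2* at 0.688 times the treated WT level, both with overlapping intervals. The median log2 difference over the 6 receptors was 0.05 in control and -0.22 in treated cells, and over all tested genes -0.008 and -0.026.

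Other chemokine receptors examined were low. Of 16 receptor genes, including the atypical receptors *Ackr1* to *Ackr4* that bind chemokines without G protein signalling, 5 passed the filter, and 11 were under 1 FPKM in all groups. None of the 5 was past the fold with ansamitocin-P3 in either genotype (0 of 5 in WT DCs and 0 of 5 without GEF-H1), against 4.94% and 1.08% of all tested genes. Their median log2 changes were 0.16 and 0.08. *Ccr4*, a receptor for CCL17 and CCL22, had the highest log2 change in WT DCs, 0.40, and was at 0.610 FPKM (0.366 to 0.842) before and 1.12 FPKM (0.779 to 1.46) after the drug. *Cxcr1*, a second receptor for neutrophil chemokines, had the next, 0.35, at 0.0963 and 0.402 FPKM. *Ccr6*, the receptor for CCL20, had the lowest, -0.79, and its intervals were apart in WT DCs, from 1.68 FPKM (1.11 to 2.25) to 0.546 (0.174 to 0.934). The intervals of *Ccr4* and of *Cxcr1* overlapped in WT DCs. *Ccr4* reached 1 FPKM only in treated WT DCs, *Ccr6* only in control WT DCs and *Cxcr1* only in the GEF-H1-/- groups. The filter therefore bears on which changes are seen among these low genes. *Ccr3*, the eotaxin receptor of eosinophils and basophils, had a log2 change of -0.15 in WT DCs. *Ccr3* and *Cxcr1* differed by genotype instead, from 0.753 FPKM (0.474 to 1.03) in control WT to 2.86 (2.02 to 3.67) in control GEF-H1-/- DCs for *Ccr3*, and from 0.0963 (0 to 0.197) to 2.32 (1.30 to 3.03) for *Cxcr1*. They were the only 2 of the 5 past the fold between the control groups, against 1.26% of all tested genes in that direction. Both reached 1 FPKM only in the GEF-H1-/- groups, so the filter favours this direction and the count is partly set by it. Markers of basophils and mast cells ran the same way, with a summed FPKM of 107 and 109 in the WT groups and 198 and 190 in the GEF-H1-/- groups. Of the 4 genes of that list 3 were higher in control GEF-H1-/- DCs by their intervals (all tested genes, 2.86%) and 1 was past the fold (all tested genes, 1.26%). The part of these cells in *Ccr3* was not tested.

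**Figure D3:**
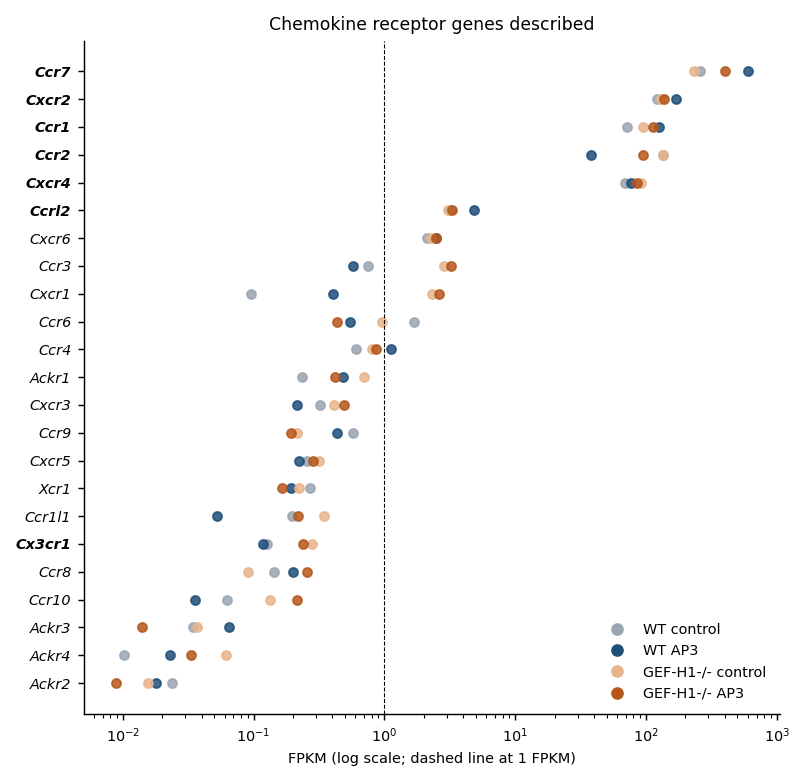
FPKM on a log axis of 23 chemokine receptor genes, the 7 described here in bold, with 1 point per group and a dashed line at 1 FPKM, ordered by their mean. *Ccr7* lies highest, and *Ccr3* (up to 3.21 FPKM) and *Ccrl2* (up to 4.81 FPKM) lie far below the 5 receptors of the upper set.

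Many of the chemokines that bind these receptors rose with the drug. Of 18 ligand genes, 12 passed the filter, and 8 of these were past the fold upwards in WT DCs and 5 without GEF-H1, against 3.66% and 0.807% of all tested genes, and none downwards. The median log2 change was 1.68 and 0.69. In control cells 6 of the 12 were past the fold upwards in GEF-H1-/- compared with WT DCs, against 1.26% of all tested genes. *Cxcl3* and *Cxcl2*, ligands of CXCR2, had the highest log2 changes in WT DCs, 4.87 and 3.78. *Cxcl3* was at 3.97 and 145 FPKM without and with the drug in WT cells and at 9.73 and 35.4 FPKM in GEF-H1-/- cells, and *Cxcl2* at 3.68 and 63.4 FPKM and at 5.36 and 17.0 FPKM, while the intervals of *Cxcr2* overlapped. *Mif* and *Ccl5* had the lowest, 0.12 and 0.28, and the FPKM of both lay outside their own intervals. In WT DCs *Ccr2* and its ligands *Ccl2* and *Ccl7* went in opposite directions. A further ligand gene of CCR2, *Ccl12*, had log2 changes of 0.91 in WT DCs and 0.98 without GEF-H1, both with overlapping intervals. With the drug *Ccl2* reached 147 FPKM (102 to 165) from 34.8 (23.6 to 41.9) in WT cells, and 190 (132 to 212) from 78.9 (54.1 to 87.9) without GEF-H1. *Ccl7* reached 62.7 FPKM (42.6 to 74.2) from 10.0 (6.43 to 12.2) in WT cells, and 70.6 (48.1 to 83.2) from 25.8 (17.2 to 31.2) without GEF-H1. Both were named here because they bind CCR2, after their values were seen. They rose in both genotypes, and in control cells both were higher in GEF-H1-/- than in WT DCs without overlap, whereas *Ccr2* was alike in the control groups. The *Ccr7* ligands *Ccl19* and *Ccl21a* were listed at 0 in all groups. *Cxcl12*, the ligand of CXCR4, and *Rarres2*, which encodes the chemerin that CCRL2 binds, were under 1 FPKM in all groups. *Cx3cl1* was at 21.1 FPKM (17.2 to 25.1) among WT controls and 27.9 (22.5 to 33.3) after the drug, next to a receptor gene near 0. Without GEF-H1 it was at 20.7 FPKM (16.8 to 24.6) and 16.8 (13.6 to 20.0), and the intervals overlapped in each genotype. Between the treated groups *Cx3cl1* was lower in GEF-H1-/- DCs, with a log2 difference of -0.70 and intervals apart. In all 4 of the 12 ligand genes were lower there by their intervals (all tested genes, 6.73%), and none higher.

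**Figure D4:**
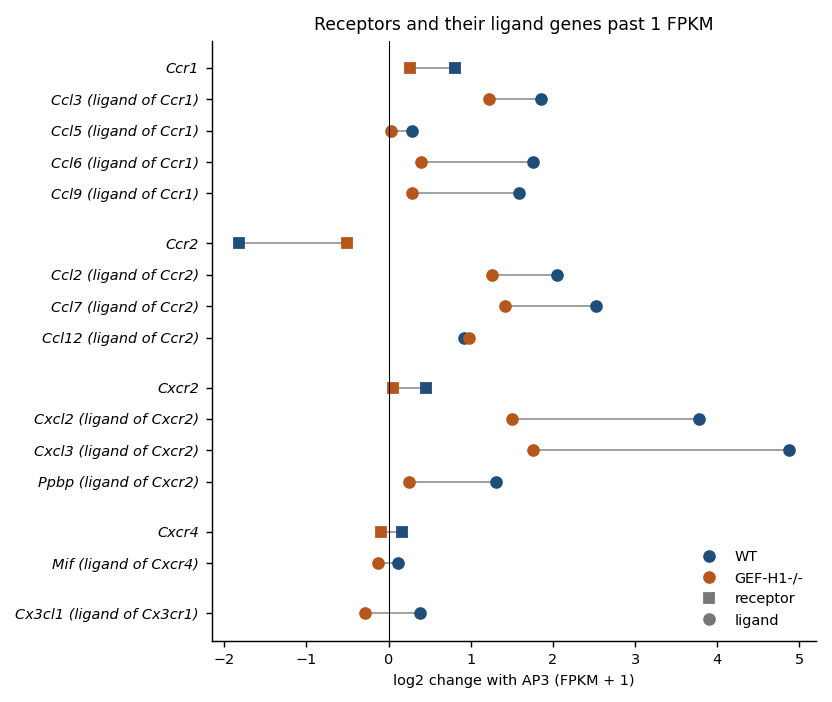
Log2 change (FPKM + 1) with ansamitocin-P3 (AP3) of receptor genes (squares) and of the ligand genes past 1 FPKM (circles) in WT (blue) and GEF-H1-/- DCs (orange), grouped by receptor; *Ccr7* and *Ccrl2*, whose ligand genes stayed under 1 FPKM, and *Cx3cr1* itself are not drawn. *Ccr2* (-1.82 in WT) lies left of 0 and its ligands *Ccl2* (2.05), *Ccl7* (2.53) and *Ccl12* (0.91) lie right of it.

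Of the genes that act below the receptors few were past the fold. Of 27 genes for G proteins, receptor kinases, arrestins, RGS proteins and effectors, all of which passed the filter, 1 was past the fold upwards (all tested genes, 3.66% in WT and 0.807% without GEF-H1) and none downwards in each genotype, and the median log2 change was 0.11 and 0.05. That gene was *Rgs1*, which encodes a protein that shortens G protein signalling and dampens chemokine responses. In WT cells *Rgs1* rose to 121 FPKM (97.4 to 144) from 45.5 (35.4 to 55.5), and without GEF-H1 to 75.1 (59.6 to 90.6) from 35.9 (28.1 to 43.6). *Pik3r5*, a regulatory subunit of the G protein-activated PI3 kinase gamma, rose in WT DCs with a log2 change of 0.82 and had 0.58 with overlapping intervals in GEF-H1-/- DCs. *Rgs2* fell in both, with log2 changes of -0.78 and -0.66, and *Rgs18* fell in WT DCs only by its intervals, with -0.71 and -0.09. That difference was not tested.

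The genes closest to each receptor over the 4 group values were sought among 8816 genes that reached 5 FPKM in a group, by the Euclidean distance of centred log2(FPKM + 1), as a description over 4 values. For *Ccr7* they were *Malt1* (distance 0.07), *Tank* and *Stbd1*, with log2 changes in WT DCs between 1.19 and 1.30. For *Ccr2* they were *Tfrc*, *Ppargc1b* and *Fgd2*, at distances of 0.20, 0.23 and 0.24, with log2 changes between -1.70 and -1.62 in WT DCs. These distances were larger than for the other receptors searched. For *Ccr1* they were *Dvl1*, *Nlrp3* and *St3gal1*, for *Cxcr2* *2510039O18Rik*, *Zfp36l2* and *Gng5*, and for *Cxcr4* *2010003O02Rik*, *Rrp8* and *Glb1*, at distances between 0.02 and 0.10.

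Markers of other cells were set beside the *Ccr2* and *Ccr7* values. Of the 6 macrophage markers all had a log2 change below 0 in WT DCs, with a median of -0.63, and *Mertk* was past the fold, from 5.46 FPKM (4.32 to 6.59) to 0.778 (0.536 to 1.01), a log2 change of -1.86 against -0.65 in GEF-H1-/- DCs. They summed to 150.0 and 98.3 FPKM in untreated and treated WT cells, and to 188 and 163 FPKM in GEF-H1-/- cells. Between the treated groups 3 of the 6 were higher in GEF-H1-/- than in WT DCs by their intervals, *Mrc1*, *Mertk* and *C1qa*, against 7.02% of all tested genes, and 1 of them was past the fold, *C1qa*. In control cells 2 of the 6 were higher in GEF-H1-/- DCs by their intervals, against 2.86% of all tested genes, with *C1qa* at 29.2 against 4.22 FPKM. The intervals of *Ccr2* overlapped there. Of the 6 dendritic cell markers 3 had a log2 change above 0 and 3 below it in WT DCs, with a median of 0.18. *Zbtb46* (0.54), *Cd74* (0.42) and *Itgax* (0.37) were above 0, with overlapping intervals. The low markers *Flt3* and *Cd209a* fell in WT DCs by their intervals (all tested genes, 7.58% downwards). Their log2 changes were -0.58 and -0.64 against -0.19 and -0.31 without GEF-H1. Between the treated groups both were higher in GEF-H1-/- DCs, with intervals apart, and *Cd209a* was so between the control groups too. The 4 monocyte markers had a median of 0.01 in WT DCs, with *Ly6c2* at 448 FPKM in control and 454 in treated cells. The 6 markers of mature dendritic cells had a median of 0.33 in WT DCs and 0.20 without GEF-H1, none past the fold, beside the larger change of *Ccr7*. In WT DCs the highest changes of that list were those of *Cd86*, a co-stimulatory ligand (0.49, 50.8 and 71.8 FPKM), and *Il12b*, a subunit of IL-12 (0.48), and the lowest were those of *Cd40* (-0.06) and *Fscn1* (0.11), all with overlapping intervals. Without GEF-H1 *Il12b* rose by its intervals, with a log2 change of 0.65 (all tested genes, 2.75% upwards). *Cd83* had log2 changes of 0.30 in WT DCs and -0.23 without GEF-H1, both with overlapping intervals. Between the treated groups 1 of the 6, *Cd83*, was lower in GEF-H1-/- DCs by its intervals (all tested genes, 6.73%). It was also past the fold there, at -1.02 (all tested genes, 2.06%). The 4 lymphocyte markers summed to between 4.45 and 8.86 FPKM. The part of a change in cell makeup in the *Ccr2* and *Ccr7* values was not tested.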

How the data were processed

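RNA was sequenced from 8 libraries of BMDCs, 2 in each of 4 groups taken from the sample titles. The authors deposited 1 table of FPKM, computed with Cuffdiff (version 1.05 in the submitters' processing notes, build mm10) from strand-specific, paired-end libraries of polyadenylated RNA. The aligner and annotation of this table are not given in the sources used here. Each deposited FPKM combines the 2 libraries of a group, and the deposited bounds of its 95% interval, also in FPKM, stand as the other measure used. Columns were matched to groups by name, those of WT by the absence of a knockout name, and 0 columns of single samples were unused. Genes whose status was not OK (107 of 23356) were left out, and 11397 passed 1 FPKM in at least 1 group. Changes are log2 ratios with a pseudocount of 1 FPKM, computed in Python 3.11.15 with pandas 2.3.3 over all tested genes; the procedure was tested on simulated data. The depth reached per library is unknown, and no test was possible. Positions come from the table, strands and exons from GENCODE M21 (GRCm38), and promoter windows from RefSeq. The named genes were the 7 receptors, *Arhgef2*, the 2 highest and 2 lowest WT changes of each receptor, ligand and signalling list, and the 3 genes of closest pattern. Cell type markers were partly named after their values were seen. The receptors, lists and motifs were chosen with earlier results of these data known. One gene of the fixed receptor list is not reported here. Alternatives covered the pseudocount, filter, scaling, fold and intervals.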

Additional observations from a re-analysis of the deposited data

How the results depend on the processing

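The number of receptors past the fold was 2 in WT DCs and became 1 when the groups were rescaled to the same total FPKM, because *Ccr7* then had a log2 change of 0.94. That scaling divides treated WT values by 1.21 and moved the median change of all tested genes to -0.24, relative to which *Ccr7* stood at 1.18. A threshold of 1.5-fold gave 3 receptors in WT DCs in place of 2, with *Ccr1* added, and 1 receptor in GEF-H1-/- DCs, *Ccr7*, in place of 0. Under the other settings listed in the methods the numbers of receptors past the fold were within 1.5 times the main ones. Of 175 values of single receptors under alternatives, 175 moved by less than the error that the intervals of the groups give the change. This count says little, because the filter does not enter the change of a single gene, so values under other filters could not move. The largest shift, 0.28, came from rescaling to the same total FPKM, which moves all genes of a group by the same factor. The sign turned for 4 values that were not past the fold, of *Cxcr4* in WT DCs (-0.11), *Ccr1* between treated groups (0.11) and *Ccr2* between control groups (0.004 and 0.02), by rescaling. The share of all genes past the fold in WT DCs ran from 2.42% without a filter to 17.7% at 1.5-fold, and in GEF-H1-/- DCs from 0.529% to 3.98%. For the genotype difference it ran from 0.886% to 5.26% in control and from 1.81% to 14.8% in treated cells, and for the difference between the effects from 0.929% to 8.20%. No paired analysis was possible because the columns combine the libraries of a group, and for the same reason no replicate could be left out. Low values, as for *Ccrl2* (3.05 to 4.81 FPKM) and *Cx3cr1* (0.119 to 0.278 FPKM), are limited by the width of their intervals.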

Other observations

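Other receptors that guide myeloid cells to chemoattractants were measured beside the chemokine receptors. Of 12 such genes, 10 passed the filter, and 2 were past the fold with ansamitocin-P3 in WT DCs, both upwards (all tested genes, 3.66%), and 0 were in GEF-H1-/- DCs (all tested genes, 0.807% upwards). The median log2 changes were 0.32 and 0.21. *C5ar1*, the receptor for the complement fragment C5a, rose to 83.9 FPKM (66.0 to 102) from 33.1 (24.1 to 42.3) in WT cells, and to 35.5 (27.6 to 43.3) from 21.5 (16.9 to 26.2) without GEF-H1. *Ltb4r1*, the receptor for leukotriene B4, rose from 62.1 FPKM (40.7 to 65.8) to 142 (90.0 to 144) in WT DCs, and its intervals overlapped without GEF-H1, at 57.7 FPKM (37.6 to 60.9) and 76.5 (49.3 to 79.6). *Cmklr1*, the signalling receptor for chemerin, and *Fpr2*, a formyl peptide receptor, had the lowest log2 changes in WT DCs, -0.31 and 0.03. Both differed between the control groups, *Cmklr1* being higher in GEF-H1-/- (13.9 against 6.24 FPKM) and *Fpr2* lower (43.0 against 91.1 FPKM), with intervals apart.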
